A study of Mus musculus with 15 samples.

Results

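Iron handling was followed through 10 of the 32372 genes in the count matrix, in microglia of 15 hTfR KI mice. The mice were males of the C57BL/6J strain aged 3.5 months, and the cells were taken with beads against CD45 from cortex and hippocampus. The genes were listed by name for their role, with earlier results of these data known: Tfrc, Steap3, Slc11a2 and Slc11a1 for iron entry and its movement out of vesicles, Fth1 and Ftl1 for storage, Slc40a1 for export, Hmox1 for release of iron from heme, and Ireb2 and Aco1 for control. All mice, controls included, carry the human apical domain of the transferrin receptor in the mouse Tfrc locus, so the first of these genes is itself the altered gene. A single injection at 10 mg/kg gave either ATV:4D9, an antibody against the microglial receptor TREM2, or the control ATV:RSV. ATV in both names stands for an Fc that binds the human apical domain, so no group lacks that Fc. Controls were studied 1 day after ATV:RSV, and treated mice 1, 7, 14 or 28 days after ATV:4D9, which makes 5 groups of 3 mice, with 1 mouse of every group in each of 3 batches. Days 7, 14 and 28 have no control of the same day, so every comparison with ATV:RSV uses the same 3 control mice.

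Cells take up iron bound to transferrin through the transferrin receptor, encoded by Tfrc. In the endosome the iron is released, reduced by STEAP3 and carried into the cytosol by DMT1, the product of Slc11a2. Iron that is not used is stored in ferritin, a shell of heavy chains (Fth1) and light chains (Ftl1), or leaves through ferroportin (Slc40a1), the known iron exporter of mammalian cells. Slc11a1 encodes NRAMP1, a metal transporter of the phagosomes of macrophages, and heme oxygenase-1 (Hmox1) frees iron from heme. The iron regulatory proteins, IRP1 from Aco1 and IRP2 from Ireb2, bind a hairpin called the iron-responsive element when iron is low: in the 5′ UTR this blocks translation, and in the 3′ UTR it protects the mRNA from decay. Microglia are the brain's resident macrophages and hold much ferritin.

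A search of the annotated UTRs for the hairpin core found it in 4 of the 10 genes, and in 160 of 21877 protein-coding genes (0.731%). The core searched for was a bulged C, 5 bases, a loop of CAGTG and any base, and 5 bases that pair with the 5 before the loop, G-T pairs included. So strict a pattern can miss elements: Slc11a2 had no match, though it has transcripts with an iron-responsive element. A gene without a match may therefore still hold one. The hairpins are shown because they are the sequences through which the regulators act on these mRNAs. Each is 30 bases long, in mm10 and on the strand of its gene, and the capitals mark the 6 bases of the loop. The first group lies in 5′ UTRs, of Fth1 at chr19:9982732-9982761 on the plus strand, of Ftl1 at chr7:45459778-45459807 on the minus strand and of Slc40a1 at chr1:45925464-45925493 on the minus strand:
Fth1 5′ UTR: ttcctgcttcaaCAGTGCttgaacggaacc
Ftl1 5′ UTR: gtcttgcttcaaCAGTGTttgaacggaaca
Slc40a1 5′ UTR: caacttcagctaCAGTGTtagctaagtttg
The second group lies in the 3′ UTR of Tfrc, in exon 19 on the plus strand, at chr16:32631219-32631248, chr16:32631598-32631627, chr16:32631663-32631692 and chr16:32631710-32631739:
Tfrc 3′ UTR, hairpin a: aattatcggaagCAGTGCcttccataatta
Tfrc 3′ UTR, hairpin b: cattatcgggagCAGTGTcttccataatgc
Tfrc 3′ UTR, hairpin c: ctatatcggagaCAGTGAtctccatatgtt
Tfrc 3′ UTR, hairpin d: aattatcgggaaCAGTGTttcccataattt
Tfrc thus held 4 matches in its 3′ UTR, and each of the other 3 genes held 1 in its 5′ UTR. The counts measure mRNA, so translation, the step that a 5′ UTR hairpin controls, was not measured.

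The libraries held 5667 to 7596 cells and 32341960 to 70307384 UMIs (counted molecules) per mouse. The depth of a cell differed between groups: the median was 8202 to 8996 UMIs per cell in the 3 mice of ATV:4D9 day 1 and 4694 to 6117 in the other 12. Also at day 1 of ATV:4D9, 19.6% to 27.4% of cells held a UMI of Mki67 or Top2a, genes of dividing cells, against 0.168% to 0.684% in the other mice. All 10 microglial markers looked for were detected, with a summed level of 30670 to 33040 CPM (counts-per-million of all UMIs) in ATV:RSV and 25000 to 27130 CPM at day 1 of ATV:4D9. Between the same groups the summed markers of other cells also moved without overlap, from 196 to 204.5 CPM to 131 to 139 CPM for border-associated macrophages (8 markers), from 223 to 276 CPM to 117 to 123 CPM for astrocytes (7 markers), from 88.9 to 108 CPM to 66.4 to 73.4 CPM for oligodendrocytes (8 markers), from 25.8 to 34.8 CPM to 18.8 to 24.5 CPM for endothelial cells (8 markers), which are known to express Tfrc, and from 4.46 to 11.7 CPM up to 13.5 to 17.9 CPM for monocytes (6 markers). None of these markers was at 0 in a group, and their part in the changes at day 1 was not tested. Without the cells that held markers of another type, Tfrc had a log2 fold change of 2.54 at day 1. Libraries shared 5 to 27 barcode sequences per pair, 1283 sequences in all. The counts of all cells of a mouse were added up and are given as counts-per-million on TMM-scaled totals (CPM), which compares a gene's share of the RNA of a mouse after scaling that sets most genes to no change. Fold changes and adjusted p-values come from limma-voom with Benjamini-Hochberg adjustment over 14260 genes. In summed counts, fewer cells that express a gene and less RNA of it per cell cannot be told apart.

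One day after ATV:4D9, 7 of the 10 genes had changed. Tfrc, Steap3, Slc11a2, Fth1 and Ftl1 were higher than in ATV:RSV, and Slc40a1 and Ireb2 were lower. Slc11a1, Hmox1 and Aco1 did not pass the test. Most genes of the microglia changed at this time, with 34.7% of all tested genes called higher and 34.6% called lower, so 5 and 2 of 10 are to be read against those shares. The median log2 fold change of the 10 was 0.43, beside -0.05 over all genes tested.

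**Figure D1:**
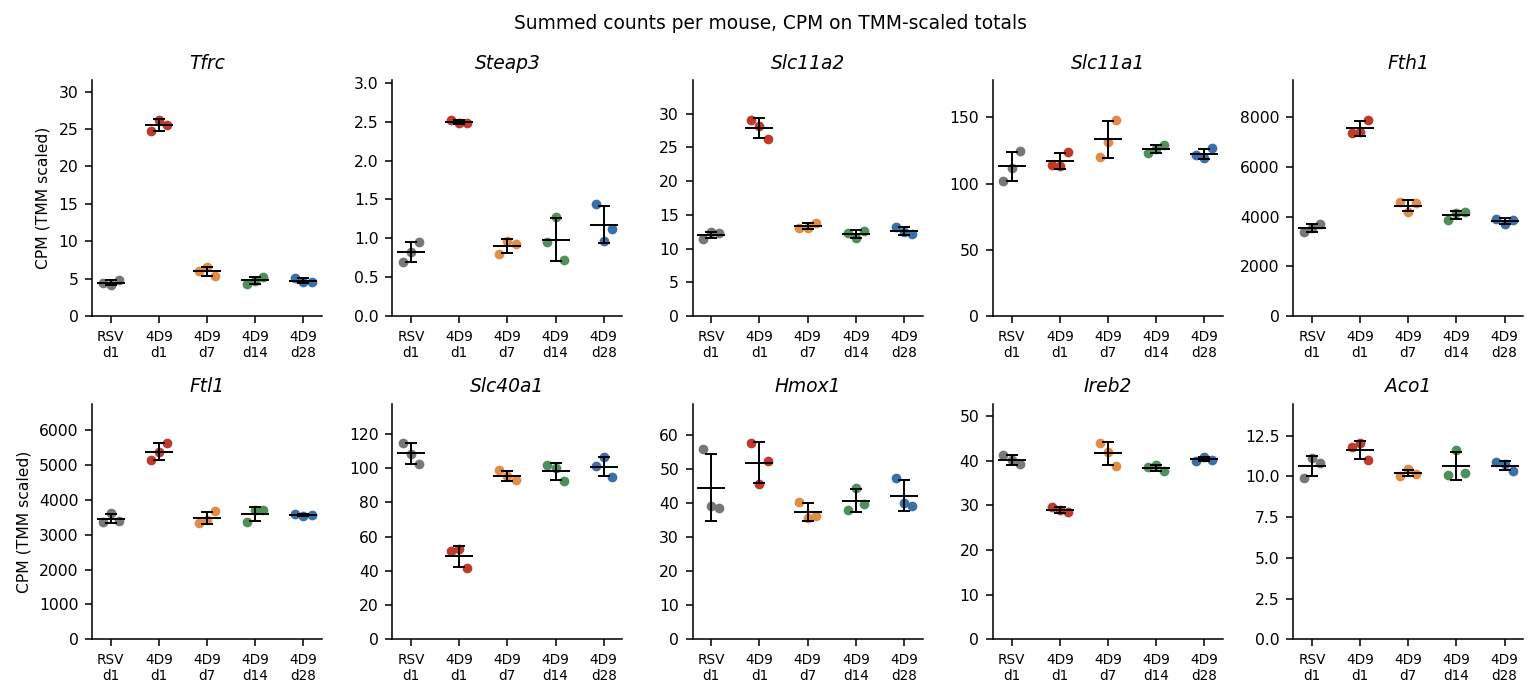
Level of each of the 10 iron genes, in CPM on TMM-scaled totals, in the 3 mice of each group (coloured points), with the mean and SD in black and axes that start at 0. Tfrc sits between 24.8 and 26.3 CPM at day 1 of ATV:4D9 and between 4.10 and 6.59 CPM in every other mouse, and Slc40a1 lies at 41.4 to 52.4 CPM at day 1 of ATV:4D9 against 102.5 to 114.6 CPM in ATV:RSV.

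Of the uptake genes, Tfrc (chr16:32608920-32632794, plus strand) had the largest fold change among the 10. It was at 4.44, 4.10 and 4.75 CPM in the 3 mice of ATV:RSV and at 24.8, 26.3 and 25.6 CPM in those of ATV:4D9 day 1. The groups lay far apart, and the mice within each differed little. The log2 fold change was 2.53 ± 0.089 (SE), or 5.76-fold (limma-voom adjusted p = 1.48e-12). A cell held on average 0.0289 ± 0.0033 Tfrc UMIs in the controls and 0.213 ± 0.012 at day 1 of ATV:4D9 (SD over 3 mice). The counts behind these were 170 to 217 UMIs in a control mouse and 1195 to 1608 in a treated one. Whether the knocked-in human sequence, which mm10 does not hold, altered the count of Tfrc was not tested. It is present in all groups.

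Steap3, the ferrireductase of the endosome (chr1:120190757-120272705), was at 0.695, 0.820 and 0.954 CPM in ATV:RSV and at 2.53, 2.48 and 2.48 CPM at day 1 of ATV:4D9. The rise was 1.61 ± 0.190 on the log2 scale (limma-voom adjusted p = 1.62e-06). It rests on few molecules, 34 to 40 UMIs per control mouse and 116 to 161 per mouse at day 1. Slc11a2, which moves iron out of the endosome (chr15:100387898-100425072), went from 11.5, 12.4 and 12.2 CPM to 29.1, 28.2 and 26.3 CPM. Its groups did not overlap, with a log2 fold change of 1.22 ± 0.060 (limma-voom adjusted p = 6.48e-11). The transcripts of Slc11a2 with and without an iron-responsive element differ in their 3′ ends and were summed in the deposited counts. Its paralog Slc11a1, of the phagosome (chr1:74375195-74386062), was at 102, 112 and 125 CPM and at 114, 113 and 124 CPM, so that the groups overlapped. Its log2 fold change of 0.06 ± 0.075 did not pass (limma-voom adjusted p = 0.514).

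For the storage genes, Fth1 (chr19:9980598-9985098) rose from 3375, 3551 and 3701 CPM to 7357, 7395 and 7908 CPM. That is a log2 fold change of 1.09 ± 0.050, or 2.13-fold (limma-voom adjusted p = 2.88e-11). Ftl1 (chr7:45457944-45459884) rose less, from 3372, 3608 and 3382 CPM to 5128, 5378 and 5628 CPM, by 0.64 ± 0.052 on the log2 scale (limma-voom adjusted p = 2.1e-08). Both chains separated the groups without overlap. Ftl1 shares sequence with the copy Ftl1-ps1 on chromosome 13, whose reads cannot be told from it with certainty. That copy was at 19.2 ± 0.684 CPM (SD, n = 3) in ATV:RSV and 28.4 ± 1.88 CPM at day 1 and held at most 1892 UMIs in a mouse, where Ftl1 held 110123 or more.

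The exporter gene and 1 of the regulator genes went the other way. Slc40a1, which encodes the exporter ferroportin (chr1:45908068-45926523), was at 114.6, 108.3 and 102.5 CPM in ATV:RSV and at 51.8, 52.4 and 41.4 CPM at day 1 of ATV:4D9. It fell by 1.16 ± 0.078 on the log2 scale (limma-voom adjusted p = 2.13e-09) and was 2.24-fold lower. The cells of day 1 held more UMIs in all, but those of Slc40a1 per cell were fewer, 0.408 ± 0.075 against 0.707 ± 0.079 (SD, n = 3 mice each). Ireb2, encoding IRP2 (chr9:54863789-54912530), went from 41.3, 40.1 and 39.2 CPM to 29.6, 28.9 and 28.4 CPM, a log2 fold change of -0.47 ± 0.049 (limma-voom adjusted p = 3.43e-07). This difference is one of relative share: per cell, Ireb2 had 0.245 to 0.288 UMIs in control mice and 0.222 to 0.265 in those of day 1, and the groups overlapped. Aco1, encoding IRP1 (chr4:40143081-40198338), was at 9.94, 11.2 and 10.8 CPM and at 11.80, 12.06 and 11.04 CPM, which overlap, with a log2 fold change of 0.14 ± 0.069 (limma-voom adjusted p = 0.087). It passed as higher with DESeq2 size factors in place of TMM and without mouse 3 of day 1 of ATV:4D9.

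Hmox1, which degrades heme (chr8:75093621-75100589), was at 55.9, 39.1 and 38.6 CPM in ATV:RSV and at 57.7, 45.5 and 52.5 CPM at day 1 of ATV:4D9. The first control mouse lay among the treated mice, and the log2 fold change of 0.23 ± 0.125 did not pass (limma-voom adjusted p = 0.112). Without that mouse it was 0.41 and passed (limma-voom adjusted p = 0.00296), as it did without the second mouse of day 1, at 0.33 (limma-voom adjusted p = 0.0414). The same control mouse had the highest summed level of 10 erythroid markers among the 15 libraries, 396 CPM of all UMIs, with 15.7 and 222 in the other controls and 4.38 to 35.9 at day 1 of ATV:4D9. The part of erythroid RNA in the Hmox1 values was not tested.

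Scaling decided the direction of the genes that changed little. With totals in place of TMM, the median of all genes at day 1 moved from -0.05 to -0.29 on the log2 scale, and the share of calls that were higher went from 50.1% to 34.7%. Under that scaling the same 5 genes passed as higher and Slc40a1 and Ireb2 as lower, and Slc11a1 turned from 0.06 to -0.18 and passed as lower (limma-voom adjusted p = 0.04). Tfrc then had a log2 fold change of 2.29, Fth1 0.85 and Ftl1 0.40. Hmox1 (-0.01) and Aco1 (-0.10) took a negative sign and did not pass.

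By day 7 most of this had gone. Only Fth1 was still called higher than in ATV:RSV, at 4577, 4180 and 4555 CPM, a log2 fold change of 0.33 ± 0.051 (limma-voom adjusted p = 0.00098), where 2.99% of all genes were called higher and 0.996% lower. Tfrc was at 5.97, 6.59 and 5.29 CPM, above all 3 control mice, and did not pass, with a log2 fold change of 0.40 ± 0.108 (limma-voom adjusted p = 0.0508). Tfrc passed in 7 of 17 other settings, among them edgeR (adjusted p = 0.0221), DESeq2 (adjusted p = 0.008) and the fit without mouse 3 of day 7 (limma-voom adjusted p = 0.0369), and over all 17 the adjusted p ran from 0.008 to 0.188. The fit with the batch as a replicate block called 4 genes at day 7, beside 7.11% of all genes, adding Tfrc (0.40, limma-voom adjusted p = 0.0333), Slc11a1 (0.24, adjusted p = 0.0091) as higher and Slc40a1 (-0.18, adjusted p = 0.0476) as lower. Without the block the adjusted p by limma-voom was 0.0946 for Slc11a1 and 0.244 for Slc40a1. The count was also 2 in place of 1 without control mouse 3, mouse 1 of day 7 or mouse 3 of day 7.

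At days 14 and 28 none of the 10 genes was called by limma-voom, beside 0.4% and 0.0% of all genes. An unadjusted p under 0.05 is passed by a share near 0.05 of genes that do not change. Here 770 of the 14260 genes passed it at day 14 and 571 at day 28, and DESeq2 called 132 and 14. Fth1 at day 14 was at 3866, 4142 and 4168 CPM, above the controls, with a log2 fold change of 0.20 ± 0.051 (limma-voom adjusted p = 0.188). It passed with the replicate block (limma-voom adjusted p = 0.0471) and by DESeq2 (adjusted p = 0.0409). At day 28 Fth1 was at 3910, 3707 and 3864 CPM, the lowest of them just above the highest control at 3701 CPM. The log2 fold change of 0.11 ± 0.051 did not pass. The 5 groups of Fth1 ordered from day 1 to days 7, 14 and 28 and then ATV:RSV, and the neighbouring groups of days 14 and 28 overlapped. Tfrc had the same order, and its groups of day 14, day 28 and ATV:RSV overlapped.

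The other genes lay near the controls in the 9 mice of days 7 to 28. Ftl1 was at 3327 to 3714 CPM, Slc11a2 at 11.5 to 13.8 CPM and Steap3 at 0.727 to 1.44 CPM, each with a range that overlapped that of ATV:RSV and stayed below all mice of day 1 of ATV:4D9. Slc40a1 was at 92.6 to 106 CPM and Ireb2 at 37.7 to 44.0 CPM, above all mice of day 1 of ATV:4D9. Taken by day, Slc40a1 lay below all controls at days 7 and 14, Ireb2 below them at day 14 and Slc11a2 above them at day 7. Of these, only Slc40a1 at day 7 passed in any setting, with the replicate block and with totals in place of TMM. With 3 mice a group, ranges can separate without a change. The share of all genes whose ranges did so at days 7 to 28 was not counted. Slc11a1 ranged from 119 to 148 CPM with its highest mouse at day 7, Hmox1 from 35.8 to 47.6 CPM and Aco1 from 10.05 to 11.65 CPM. Steap3 at day 28 was at 1.44, 0.965 and 1.12 CPM, above the controls in all 3 mice, with a log2 fold change of 0.51 ± 0.215 that did not pass (limma-voom adjusted p = 1.0).

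Between day 1 and day 7 of ATV:4D9 all 10 genes changed, where 33.0% of all genes were called higher at day 7 and 33.9% lower. The 7 lower at day 7 were Tfrc (-2.12 ± 0.084 on the log2 scale), Steap3 (-1.47 ± 0.192), Slc11a2 (-1.06 ± 0.061), Fth1 (-0.77 ± 0.050), Ftl1 (-0.63 ± 0.052), Hmox1 (-0.47 ± 0.129) and Aco1 (-0.19 ± 0.071). Slc40a1 (0.98 ± 0.079), Ireb2 (0.52 ± 0.049) and Slc11a1 (0.19 ± 0.075) were higher. The calls of Slc11a1 (limma-voom adjusted p = 0.0401) and Aco1 (adjusted p = 0.026) were the least firm and were lost in 8 and 6 of 17 other settings. Slc11a1 was at 0.10 without mouse 3 of day 7 (limma-voom adjusted p = 0.273). That mouse, the highest for Slc11a1, had a summed level of 8 neutrophil markers of 159.6 CPM, against 0.917 to 10.1 CPM in the 14 others. Without the cells that held at least 3 markers of another type Slc11a1 was at 0.18 (limma-voom adjusted p = 0.0481), and the part of free neutrophil RNA was not tested. A test of any difference between the 5 groups called 8 of the 10 genes, all but Slc11a1 (limma-voom adjusted p = 0.0715) and Aco1 (adjusted p = 0.172), beside 66.5% of all genes. With the replicate block it called 9, Slc11a1 among them (limma-voom adjusted p = 0.00484), beside 70.9% of all genes. With 1 mouse left out it called 7 to 9. Hmox1 (limma-voom adjusted p = 0.0432) was lost without any 1 of 8 treated mice, which were mice 1 and 3 of days 1 and 14 and mice 2 and 3 of days 7 and 28. Slc11a1 was gained without control mouse 3 or mouse 1 of day 7. With totals in place of TMM Hmox1 was lost (limma-voom adjusted p = 0.154) and Slc11a1 gained (adjusted p = 0.00637), so the count stayed at 8. Without the cells that held a Mki67 or Top2a UMI it was 9, by Aco1 (limma-voom adjusted p = 0.0443). In cells of clusters 0 and 1 alone the count was 4, beside 13.2% of all genes.

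**Figure D2:**
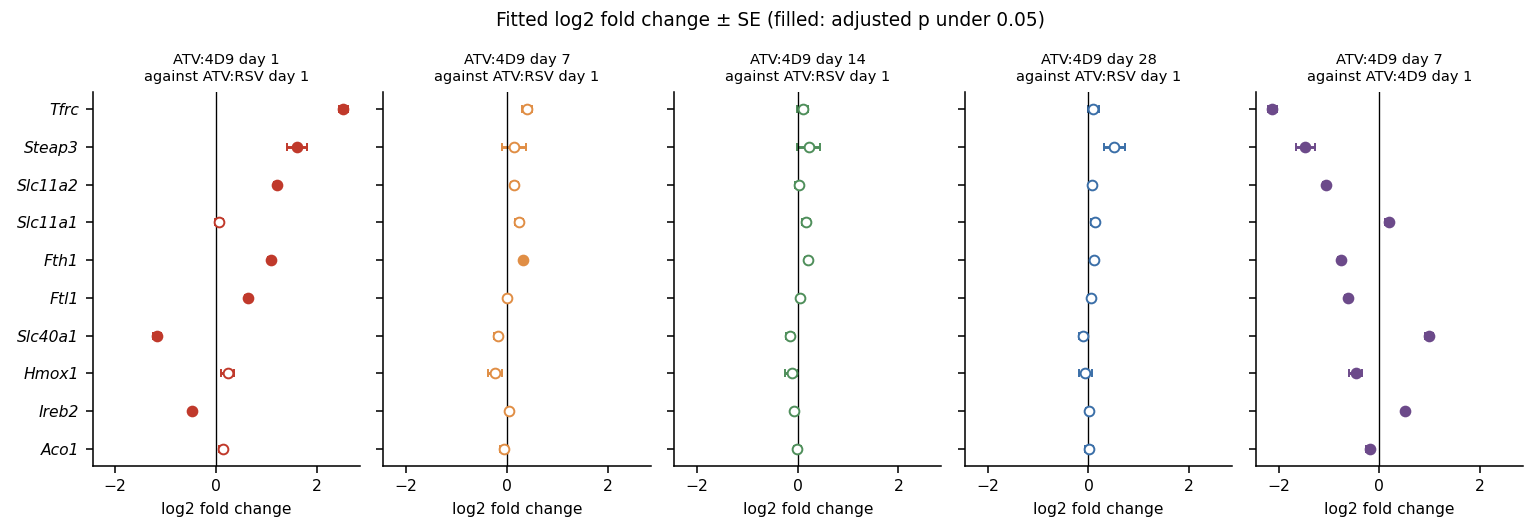
Fitted log2 fold change of each gene (horizontal axis, with SE) for each day of ATV:4D9 against ATV:RSV day 1 and, at the right, for day 7 against day 1 of ATV:4D9. Filled points passed at a limma-voom adjusted p under 0.05: 7 genes at day 1, Fth1 alone at day 7, none at days 14 and 28, and all 10 between day 1 and day 7.

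Ratios of partner genes within a library do not depend on the scaling. Their level has no meaning for abundance in 3′ counts, and only their change between groups was read. The log2 ratio of Fth1 to Ftl1 was 0.04 ± 0.082 (SD, n = 3) in ATV:RSV and 0.49 ± 0.031 at day 1, then 0.35 ± 0.095 at day 7, 0.18 ± 0.023 at day 14 and 0.10 ± 0.031 at day 28. The heavy chain thus gained on the light chain at day 1, and the mean gain was smaller at each later day. Day 7 overlapped day 1, day 28 lay within the range of ATV:RSV, and the order of the days was not tested. Over the 5 groups the ratio differed (exact permutation within batches, two-sided, p = 0.000139, adjusted over 3 ratios 0.000417). The log2 ratio of Slc11a1 to Slc11a2 was 3.23 ± 0.107 in ATV:RSV, 2.07 ± 0.144 at day 1 and 3.28 to 3.37 at the later days (exact permutation adjusted p = 0.00562). That of Ireb2 to Aco1 was 1.92 ± 0.118 in ATV:RSV, 1.32 ± 0.053 at day 1 and 1.86 to 2.03 at the later days (exact permutation adjusted p = 0.00722). For these last 2 pairs day 1 stood apart from all other groups without overlap.

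Counts of single cells showed how widely the genes were detected. Cells were thinned at random to 3385 UMIs so that the deeper cells of day 1 did not gain, and shallower cells were left out, 3.93% to 17.8% per mouse. A fixed number of UMIs compares cells by their totals, without TMM. In summed counts, totals alone put the median of all genes at day 1 at -0.29 on the log2 scale. Thinned shares at day 1 may therefore be low for the same reason, in falls and in rises. A UMI of Tfrc was then found in 1.55% ± 0.171 of cells (SD, n = 3 mice) in ATV:RSV and in 6.76% ± 0.404 at day 1 of ATV:4D9, and in 2.01% ± 0.242, 1.70% ± 0.147 and 1.57% ± 0.107 at days 7, 14 and 28. Without thinning the share was 2.74% ± 0.295 in ATV:RSV and 17.5% ± 0.944 at day 1. Cells with 2 or more Tfrc UMIs after thinning were 0.394% at day 1. Slc11a2 was found in 4.23% ± 0.0987 of thinned cells in ATV:RSV and in 7.95% ± 0.484 at day 1. Slc40a1 went from 31.0% ± 1.07 to 14.1% ± 2.02, and Ireb2 from 13.3% ± 0.828 to 8.65% ± 0.330. Without thinning Ireb2 was in 21.9% ± 1.96 and 20.6% ± 1.82 of cells, and these groups overlapped. The share that free RNA in the droplets gives was not measured.

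**Figure D3:**
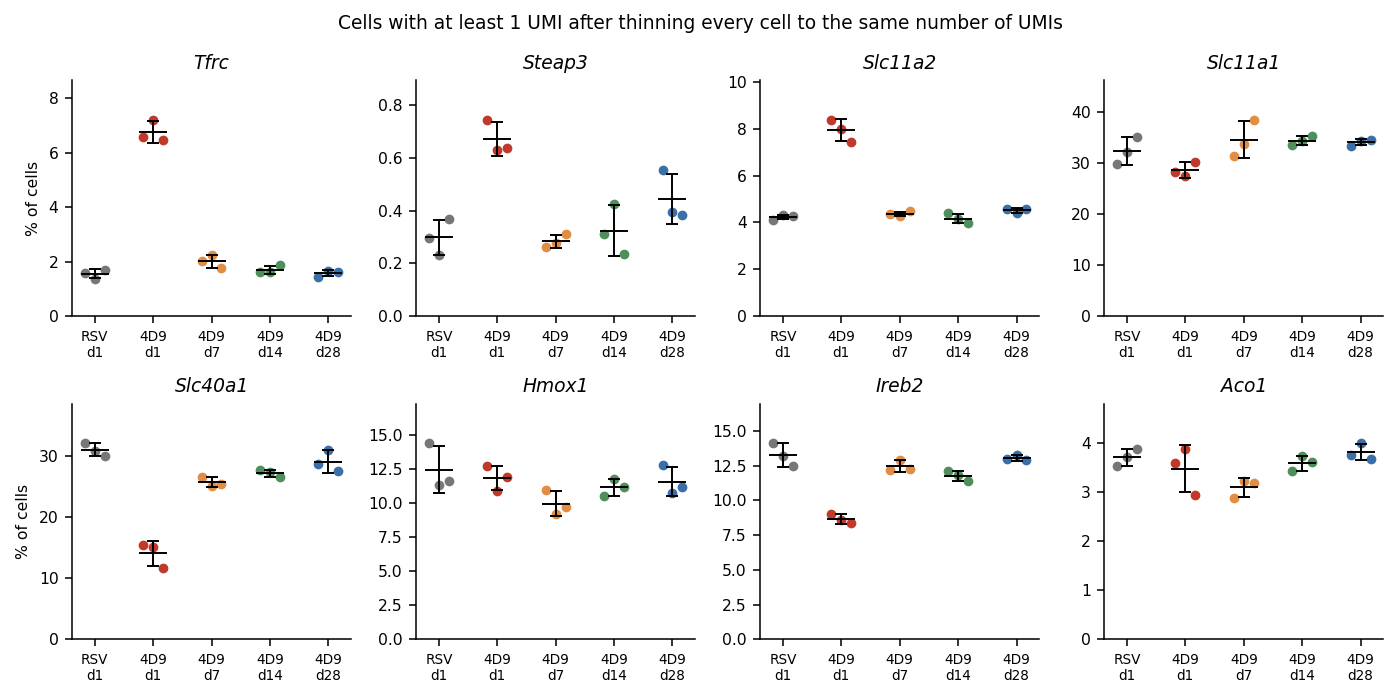
Percent of cells with at least 1 UMI of each gene after every cell was thinned to 3385 UMIs, in the 3 mice of each group (coloured points), with the mean and SD in black. Tfrc, Steap3 and Slc11a2 are found in more cells at day 1 of ATV:4D9 than in any other group, and Slc40a1 and Ireb2 in fewer.

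The ferritin chains were found in nearly every cell. After thinning, Fth1 was in 99.9% of cells in ATV:RSV. The median cell held 11 to 12 Fth1 UMIs in control mice and 18 to 20 at day 1, and the 10th and 90th percentiles moved from 5 to 6 and 20 to 21 up to 9 to 10 and 36 to 38. Low and high cells therefore both held more Fth1 at day 1. For Ftl1 the median went from 10 to 12 UMIs up to 14 to 15, the 10th percentile from 4 to 5 up to 6 to 8 and the 90th from 21 to 23 up to 25 to 26.

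Of the remaining genes, Hmox1 was found in 12.5% ± 1.70 of cells in ATV:RSV and 11.9% ± 0.896 at day 1, and Aco1 in 3.70% ± 0.168 and 3.47% ± 0.480. For both genes these ranges overlapped between the groups, and without thinning the order of the means was the opposite. Hmox1 was then in 19.8% ± 4.14 and 25.9% ± 3.14 of cells, and Aco1 in 6.50% ± 0.0483 and 8.98% ± 0.855. Slc11a1 was in 32.3% ± 2.67 and 28.6% ± 1.48 of thinned cells, and these ranges overlapped. Without thinning it was in 46.8% ± 2.70 and 54.1% ± 1.03, which is the opposite order. Steap3 was rare, and its groups did not overlap: it was in 0.299% ± 0.0671 of thinned cells in ATV:RSV and 0.671% ± 0.0652 at day 1.

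The authors deposited a cluster number, 0, 1 or 2, for each cell. The clusters rest on expression, so the levels in them are given as a description, in counts-per-million of all UMIs of a mouse and cluster without TMM. Cluster 2 held 5607 to 6597 cells per mouse at day 1 of ATV:4D9 and 74 to 245 per mouse elsewhere, and clusters 0 and 1 held 211 to 383 and 180 to 555 cells at day 1. In cluster 2 Fth1 was high in every group, at 6902 ± 113 CPM (SD, n = 3) at day 1 of ATV:4D9, 6521 ± 1167 in ATV:RSV and 6791 ± 137 to 6936 ± 195 at the later days. In clusters 0 and 1 of ATV:RSV it was at 3797 ± 154 and 3432 ± 280 CPM, and at day 1 at 4155 ± 140 and 3906 ± 315. The cells of cluster 2 thus held 5646 to 7846 CPM of Fth1 in the 12 other mice, a range that takes in the 6809 to 7028 CPM of day 1 of ATV:4D9.

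Tfrc in cluster 2 was at 23.7 ± 0.856 CPM at day 1 of ATV:4D9. The 12 other mice together held 119 Tfrc UMIs in cluster 2, which is 9.51 CPM (exact Poisson interval 7.87 to 11.4, counting error only). In cluster 0 Tfrc was at 4.62 ± 0.279 CPM in ATV:RSV and 7.54 ± 2.36 at day 1, and in cluster 1 at 4.65 ± 0.597 and 9.08 ± 3.84, with 37 and 34 UMIs behind the day 1 values. Slc11a2 was at 25.3 ± 1.89 CPM in cluster 2 at day 1 and at 21.8 ± 4.91 over the other 12 mice. It was higher at day 1 also in cluster 1, at 22.7 ± 3.96 against 13.5 ± 0.168 CPM in ATV:RSV.

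Slc40a1 in cluster 2 was at 40.9 ± 5.01 CPM at day 1 and at 59.5 ± 11.3 over the other 12 mice, whose range of 42.9 to 81.0 overlapped the 35.2 to 44.4 of day 1. The control mice had 74.2 ± 5.87 CPM in cluster 2, less than in clusters 0 (107 ± 5.07) and 1 (135 ± 11.2). Ireb2 had its highest level in cluster 1, at 54.4 ± 3.99 CPM in ATV:RSV and 53.3 ± 3.34 at day 1, and was at 25.2 ± 0.475 in cluster 2 at day 1. Hmox1 was lowest in cluster 1 in each group, 27.9 ± 6.42 CPM in ATV:RSV. In cluster 2 it was at 46.6 ± 6.13 CPM at day 1 and at 93.6 ± 20.8 over the other 12 mice, whose range of 58.7 to 123 did not reach the 3 mice of day 1.

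**Figure D4:**
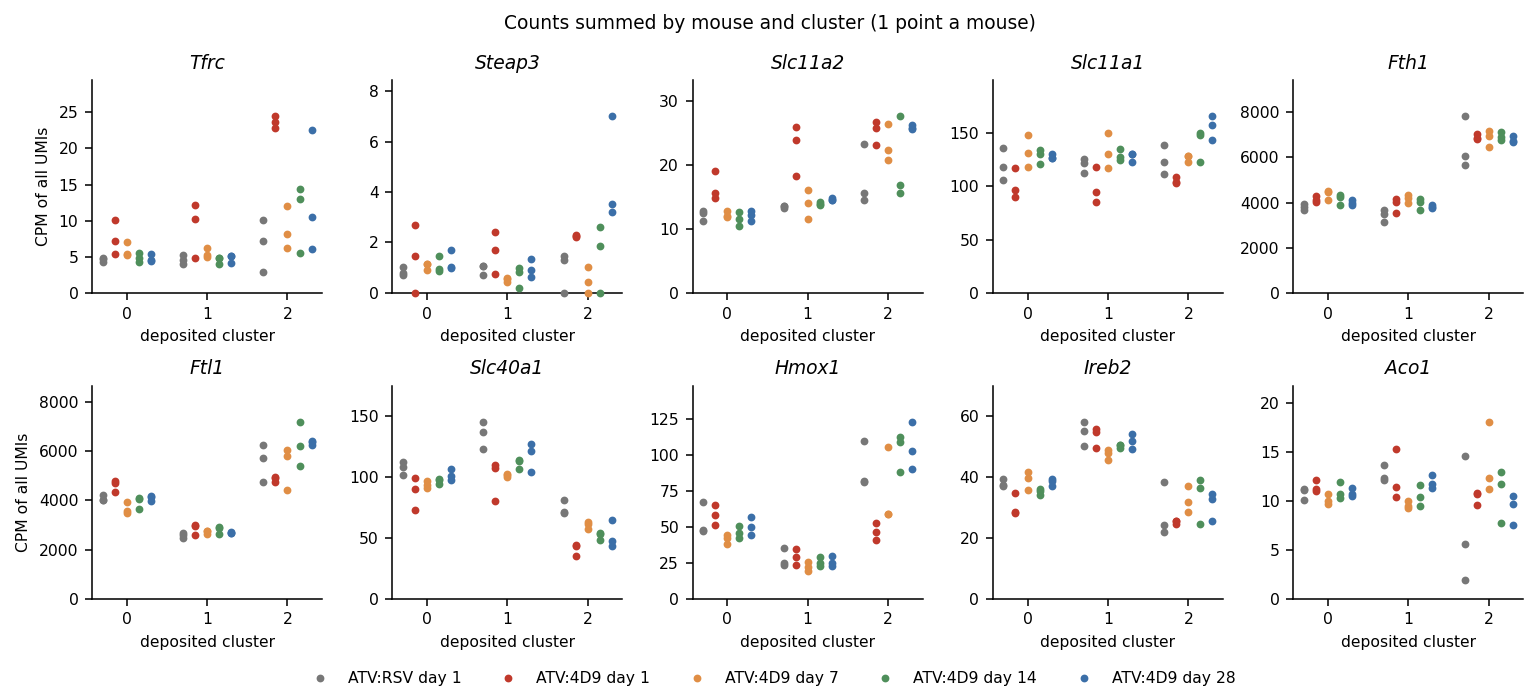
Level of each gene in counts-per-million of all UMIs of a mouse and cluster (vertical axis from 0), by deposited cluster and group, with 1 point per mouse. Fth1 is high in cluster 2 in all 5 groups, whereas Tfrc in cluster 2 is at 22.8 to 24.5 at day 1 of ATV:4D9 and at 2.92 to 22.5 in the 12 other mice.

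When the test was run on cells of clusters 0 and 1 alone, 2 of the 10 genes passed at day 1, against 7 in all cells. Of all genes tested 8.85% passed in this setting, so calls were fewer among all genes too. Slc11a2 had a log2 fold change of 0.61 (limma-voom adjusted p = 0.00548) and Tfrc 0.68 (adjusted p = 0.0484). Fth1 was at 0.12, Ftl1 at 0.07, Slc40a1 at -0.29 and Ireb2 at -0.06, and none of these passed (limma-voom adjusted p = 0.221, 0.561, 0.0778 and 0.758). Steap3 had a larger log2 fold change than Tfrc, 0.92, and did not pass either (limma-voom adjusted p = 0.214). Each mouse of ATV:4D9 day 1 then contributed far fewer cells than in the test of all cells. The clusters were made from expression in these same cells, and cluster 2, left out here, held most cells of that group. Smaller differences are therefore partly set by the choice of cells, and this fit cannot show whether all cells changed. Between day 1 and day 7 within these clusters, 3 genes passed in place of 10 (10.1% of all genes), and Fth1 was higher at day 7, with a log2 fold change of 0.20 (limma-voom adjusted p = 0.0275), the reverse of its change in all cells.

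The cells of day 1 of ATV:4D9 were also split by whether they held a UMI of Mki67 or Top2a. Tfrc was at 26.3 ± 0.511 CPM of all UMIs (SD, n = 3) in the cells with such a UMI and at 21.5 ± 0.925 in those without, a ratio of 1.17 to 1.30 in the 3 mice. Without the cells that held such a UMI the log2 fold change of Tfrc at day 1 was 2.46, against 2.53 in all cells, and dividing cells may remain among those without one. Cells with such a UMI were deeper, with a median of 10314 to 11379 UMIs against 7588 to 8418. In thinned cells Tfrc was found in 8.70% ± 0.497 and 6.39% ± 0.375. Hmox1 showed the opposite and larger contrast, 30.2 ± 4.05 CPM in cells with such a UMI and 53.2 ± 4.92 without, with ratios of 0.536 to 0.600. Without these cells Hmox1 passed as higher at day 1, with a log2 fold change of 0.45 (limma-voom adjusted p = 0.00402), as did Aco1 at 0.19 (adjusted p = 0.0237). For Fth1 the ratio was 0.929 to 0.95, for Ftl1 0.861 to 0.881, for Slc40a1 1.14 to 1.28 and for Ireb2 0.932 to 1.08. Steap3, on few UMIs, had ratios of 1.13 to 2.49, Slc11a2 0.802 to 0.926, Slc11a1 0.913 to 0.932 and Aco1 0.793 to 1.04. The uptake genes thus differed in direction.

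Other genes of the same pathways were counted from 5 lists. Of 83 genes tested in them, 43 were higher and 16 lower at day 1 of ATV:4D9, 2 higher and 1 lower at day 7, and none was called at days 14 and 28. These counts stand beside 34.7% and 34.6% of all genes at day 1 and 2.99% and 0.996% at day 7, and the lists were not tested against other genes. The list with the most genes higher was mitochondrial iron and iron-sulfur clusters, with 21 higher and 2 lower of 29 and a median log2 fold change of 0.44. Bola3, which serves late steps of iron-sulfur cluster assembly, went from 18.0 ± 1.27 to 76.4 ± 3.18 CPM (SD, n = 3), with a log2 fold change of 2.09 ± 0.060. Slc25a37, the iron importer mitoferrin-1, fell from 55.8 ± 6.46 to 39.8 ± 3.95 CPM (-0.48 ± 0.081), and Isca1, an assembly factor, from 23.3 ± 1.62 to 19.2 ± 0.986 CPM (-0.27 ± 0.093). The call of Isca1 was lost without control mouse 3 (-0.22, limma-voom adjusted p = 0.0768) and without mouse 3 of day 1 of ATV:4D9 (-0.23, adjusted p = 0.0631), and with no filter on low counts (-0.24, adjusted p = 0.0535).

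Heme synthesis and transport had 8 genes higher and 4 lower of 18, with a median of 0.16. Alad, an early enzyme of the pathway, was at 9.22 ± 0.969 CPM in ATV:RSV and 27.7 ± 1.10 at day 1 (1.59 ± 0.071). Of the late enzymes, Fech, ferrochelatase, which inserts iron into the ring, fell by 0.52 on the log2 scale and Ppox by 0.42. In the NRF2 and BACH1 list, genes of the response to oxidants and heme, 9 were higher and 2 lower of 17, with a median of 0.34. Slc7a11, the cystine importer, rose by 2.15 ± 0.285 from 1.90 to 8.96 CPM, and Txn1, thioredoxin, by 2.00 ± 0.048 from 66.7 to 267 CPM. Bach1, a repressor of Hmox1 and the ferritin genes, fell from 115 ± 4.64 to 70.4 ± 0.960 CPM (-0.71 ± 0.062), and Mafg, its partner, by 0.37.

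The last 2 lists are the nearest in role to the 10 genes. Iron uptake and endosome had 3 higher and 5 lower of 12, with a median of -0.16. In it Slc39a14, the zinc and iron importer ZIP14, rose by 1.09 ± 0.082 and Snx3, which returns the transferrin receptor to the surface, by 0.72 ± 0.055. Trf, transferrin itself, fell from 799 ± 64.1 to 418 ± 12.5 CPM (-0.93 ± 0.053), and Hfe, a partner of the receptor, by 0.51. Trf is also strong in oligodendrocytes, whose summed markers were also lower at day 1 of ATV:4D9. The part of their RNA in the fall of Trf was not tested. Iron storage and export had 2 higher and 3 lower of 7, with a median of -0.15: the iron chaperones Pcbp2 (0.34) and Pcbp1 (0.21) were higher, and Ncoa4, the receptor that sends ferritin to lysosomes (-0.84), and Herc2 (-0.37) were lower. With totals in place of TMM neither chaperone passed: Pcbp2 was at 0.10 (limma-voom adjusted p = 0.137) and Pcbp1 turned to -0.03. Every change named in this and the former 2 paragraphs passed at a limma-voom adjusted p of at most 0.0177.

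**Figure D5:**
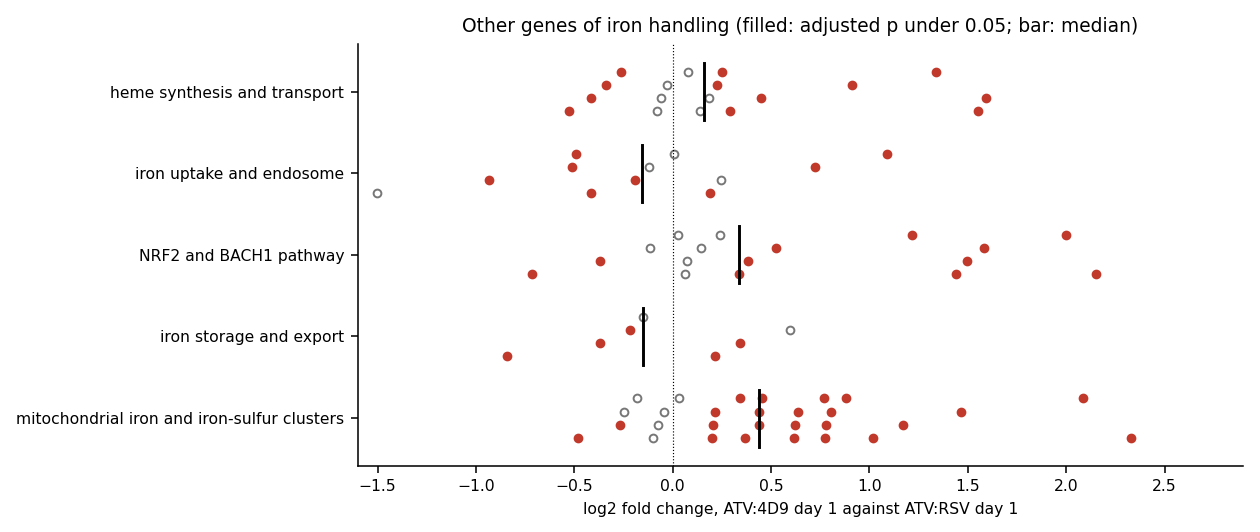
Log2 fold change at day 1 of ATV:4D9 against ATV:RSV (horizontal axis) of each tested gene in 5 lists of iron and heme genes, the 10 main genes left out, with filled points for a limma-voom adjusted p under 0.05 and a bar at the median. The mitochondrial list has 21 of 29 genes filled and higher with a median of 0.44, while the uptake and storage lists have medians of -0.16 and -0.15.

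Within cells of clusters 0 and 1 alone, 14 of the 20 genes named from the lists no longer passed at day 1 in their direction. Txn1 (0.64, limma-voom adjusted p = 7.99e-06), Trf (-0.40, adjusted p = 0.000274), Bola3 (0.68, adjusted p = 0.00126), and Bach1 (-0.33, adjusted p = 0.0394) were among those that did.

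Genes whose levels most resembled those of Tfrc over the 15 mice were Fundc2, Galns, Psme1, Hint1 and Pea15a, with Pearson's r of log2 CPM from 0.994 to 0.996. Such values are common here, since day 1 separates most genes: 1646 of 12234 genes (13.5%) had an r over 0.95 with Tfrc, 1667 with Slc11a2 and 1361 with Ftl1. The closest gene to Fth1 was Rpsa (0.992), to Ftl1 Prelid3b (0.989), to Slc40a1 Kansl1 (0.993), to Slc11a2 Pola2 (0.994), to Ireb2 Serinc5 (0.991) and to Steap3 Arfip2 (0.943). For the genes without a clear change at day 1 the best values were lower, 0.834 for Slc11a1 with Ctbs, 0.861 for Aco1 with Ubxn11 and 0.913 for Hmox1 with Far1.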

How the data were processed

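The 10 genes and all lists were chosen with earlier results of these data known. The values used were deposited UMI counts, which the authors made per gene and cell by mapping to mm10. Cell Ranger 4.0.0 is named in the submitters' processing notes, the paper names other versions, and whether reads in introns were counted is not given in the sources used here. The deposited cell table gave the percent of mitochondrial UMIs (at most 10) and a Seurat cluster number, for 102043 cells of 667 to 24995 UMIs. Its sums equalled those of the matrix in 102043 cells. Doublets were not called here. Instead, cells with at least 3 markers of 1 other cell type (2510 cells) or the 5% of cells with most UMIs per mouse were left out as alternatives.

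Counts were summed per mouse, since the mouse is the replicate. The filter was filterByExpr (minimum count 10, total 15). Sums were scaled by TMM and fitted with limma-voom over all 15 mice (limma 3.58.1, edgeR 4.0.16, R 4.3.3), and called at an adjusted p under 0.05. The fit was first tested on simulated data with few changed genes, all at day 7. That test does not cover day 1, where most genes were called. DESeq2 1.42.0 and edgeR's quasi-likelihood test were alternatives. P-values measure the spread between mice. Ratios of genes used raw sums and all 14400 exchanges of groups within batches, with a smallest p of 6.94e-05. Per the labels, a batch has a mouse of all 5 conditions, so its number pairs the mice. Mice of 1 batch deviated together from their group means at a mean r of 0.0539 across genes (-0.225 to 0.259), and mice of different batches at -0.0267.

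Named were the 10 genes, for each of 5 other lists the 2 highest and 2 lowest called log2 fold changes at day 1 where no mouse of the 6 had under 10 UMIs, and the genes most alike by Pearson's r over 12234 genes with a symbol not of a predicted gene. Levels in clusters needed at least 50 cells. Positions and UTRs are 1-based from GENCODE M21 on mm10. A further control animal in the labels was not analysed here. Some genes that this rule names are not reported here.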

Additional observations from a re-analysis of the deposited data

Results flagged for a closer look

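For each of the 10 genes the level at day 7 of ATV:4D9 differed from that at day 1. The test is that of day 7 against day 1 given above, in which the shared controls drop out. Day 7 has no control of the same day. The difference of the log2 fold changes, day 7 minus day 1, was -2.12 for Tfrc, -1.47 for Steap3, -1.06 for Slc11a2, -0.77 for Fth1, -0.63 for Ftl1, -0.47 for Hmox1 and -0.19 for Aco1. It was 0.98 for Slc40a1, 0.52 for Ireb2 and 0.19 for Slc11a1. Of these, Hmox1, Aco1 and Slc11a1 had not passed the test at day 1 against ATV:RSV. The limma-voom adjusted p was 6.18e-12 for Tfrc and 0.0401 for Slc11a1. The calls of Slc11a1 and Aco1 were lost in 8 and 6 of 17 other settings. Of all genes tested, 66.9% differed between these days, so 10 of 10 is to be read against that share.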

How the results depend on the processing

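The call or direction of a gene was the same in 802 of 850 combinations of gene, comparison and alternative, lost in 25, gained in 21 and reversed in 2. Values that passed in neither setting changed sign in 34 of the 802. Reversed were Fth1 at day 7 against day 1 (0.20) in cells of clusters 0 and 1 and Slc11a1 at day 1 (-0.18) with library size alone. Of the genes named from the lists, Hfe (0.0491), Pcbp2 (-0.0924), Pcbp1 (-0.0407), Herc2 (0.0287) and Slc25a37 (0.0811) changed sign in cells of clusters 0 and 1, and Pcbp1 (-0.0279) with library size alone. The cause was not tested.

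The number of the 10 genes called at day 1 (7) fell to 2 in cells of clusters 0 and 1, that between day 1 and day 7 (10) to 3, and that of any difference (8) to 4. Fewer cells are left there, and the clusters were made from expression, so part of the fall is set by the choice of cells. At day 7 the count of 1 became 2 with library size alone, DESeq2 size factors, edgeR's quasi-likelihood test, without cells with a Mki67 or Top2a UMI and without cells with markers of another type, 3 with DESeq2's test and 4 with the replicate block. It ranged from 1 to 2 with a mouse left out. At day 14 the count of 0 became 1 with DESeq2's test and with the replicate block, and at day 28 it was 0 in every setting. For any difference between the groups the count of 8 became 9 without cells with a Mki67 or Top2a UMI, by Aco1. The replicate block moved it to 9 by Slc11a1, and leaving out a mouse gave 7 to 9. Apart from these calls and those at days 7 and 14, the replicate block changed no call of the 10 genes.

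The change of the log2 ratio from ATV:RSV to day 1 was 0.45 for Fth1 to Ftl1, -1.15 for Slc11a1 to Slc11a2 and -0.60 for Ireb2 to Aco1. With the mice of 1 batch left out it ranged from 0.42 to 0.50, from -1.18 to -1.14 and from -0.66 to -0.54, and the exact permutation test of any difference between the 5 groups gave an adjusted p of 0.025 to 0.05, 0.025 to 0.133 and 0.05 to 0.133. With 2 batches only 120 arrangements remain and the smallest p before adjustment is 0.00833, so these p-values say little about stability. Depth limits Steap3 most, with 28 to 74 UMIs per mouse outside ATV:4D9 day 1.
Thinning to 2000 in place of 3385 UMIs lowered the share for Tfrc to 0.855% in ATV:RSV and 4.22% at day 1 of ATV:4D9.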

Other observations

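With the group means removed, the genes whose deviations over the 15 mice were most like those of Tfrc were Lrif1 (r = 0.898), Begain (0.885), Ankrd33b (0.852), Slc4a1 (0.841) and Tspo2 (0.838). Slc4a1 and Tspo2 are genes of red blood cell precursors. These are the highest of 12234 genes. With 15 mice and the group means removed, values this high can arise by chance, and how many genes would reach them was not tested. The values share libraries and rest on 170 to 1608 Tfrc UMIs per mouse, and the part of erythroid RNA in the Tfrc values was not tested.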
